A study of Mus musculus with 13 samples.

Results

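The respiratory chain and the ATP synthase of the inner mitochondrial membrane were followed in the proximal small intestine of mice fed ezetimibe. The members were all probes of the deposited table of unnormalized values whose gene symbol begins with Nduf (complex I), Sdha to Sdhd (complex II), Uqcr (complex III), Cox4 to Cox8 (complex IV) or Atp5 (complex V). This rule took 95 probes of 77 genes, out of 25697 probes of 18083 symbols. Complex I held 35 genes, complex II 3, complex III 6, complex IV 17 and complex V 16, and 14 genes had more than 1 probe. The mice were C57BL/6J males, 8 on regular chow (control) and 5 on the same chow with ezetimibe at 0.005%, each hybridised to an Illumina MouseRef-8 v2.0 BeadChip array of its own. Ezetimibe blocks the cholesterol transporter NPC1L1 at the brush border of the enterocyte. The sources used here give neither the ages nor the duration of feeding. Each value below is a log2 level after background correction and quantile normalization between arrays, with the difference between the 2 slides removed, so that it has no absolute unit and the levels of different probes are not set against each other.

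Complexes I to IV pass electrons from NADH and succinate to oxygen and, with the exception of complex II, pump protons, and complex V uses the proton gradient to make ATP. Complex I takes electrons from NADH, complex II is also the succinate dehydrogenase of the citric acid cycle, complex III hands electrons to cytochrome c and complex IV reduces oxygen. The mature enterocyte depends on this machinery for the ATP spent on ion pumps and on packaging absorbed lipid. The genes here are all nuclear genes. The subunits encoded by mitochondrial DNA were not analysed here, nor were Sdha, Cox8a, Atp5g1 and Ndufa4l2. Each gene was assigned to a complex by its symbol prefix alone, so that the figures per complex follow the names and not shown membership. Of the 77 genes, 4 were set apart as sharing the prefix without coding for a subunit. They were Ndufaf1, an assembly factor of complex I, and Cox4nb, Atp5s and Atp5sl, whose current symbols are Emc8, Dmac2l and Dmac2.

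The arrays lay on 2 slides, with 4 controls and 2 ezetimibe mice on slide 1 and 4 controls and 3 ezetimibe mice on slide 2. The arrays of slide 1 were brighter (median unnormalized signal 146.9 to 152.8) than those of slide 2 (120.7 to 127.9), and 11085 to 12380 probes were detected per array at a detection p under 0.05. Enterocyte genes marked the tissue: Vil1, Apoa1, Apoa4, Anpep and Sis were detected on all 13 arrays, whereas the probes for the fatty acid binding proteins Fabp1 and Fabp2 were detected on 0 of 13. Exocrine pancreas genes varied most between mice. The mean level of 12 of them ran from 5.96 to 12.03 among the controls and from 6.05 to 12.96 among the ezetimibe mice, and Prss2 was detected on 9 of 13 arrays. In whole tissue, fewer cells of a type and less RNA per cell cannot be told apart.

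Most of the genes taken by the symbol rule had at least 1 tested probe. A probe was tested when its detection p was under 0.05 on at least 5 of the 13 arrays, and 82 member probes of 68 genes passed, against 46.3% of all probes of the table. For 33 of 35 genes of complex I, all 3 of complex II, 4 of 6 of complex III, 13 of 17 of complex IV and 15 of 16 of complex V at least 1 probe was tested. The 9 genes below that filter were not all minor ones. They include Ndufs1, a core iron-sulfur subunit of complex I, and Uqcrq of complex III, each detected on 0 of 13 arrays, and Uqcrfs1, the Rieske iron-sulfur protein of complex III, detected on 1. The others were Ndufab1, the mitochondrial acyl carrier protein (4 arrays), Atp5k, subunit e of the ATP synthase (0 arrays), and the complex IV genes Cox4i2 (0), Cox7b2 (0), Cox8b (4) and Cox8c (0). Each of these 9 genes had 1 probe, which was above background on 4 arrays at most, and its treatment contrast was not fitted. Whether the probe or the transcript lay behind the low signal was not tested. Second probes of Ndufb11, Sdhc, Cox6b2 and Atp5j also stayed below the filter, on 1, 0, 0 and 0 arrays, while another probe of the same gene was tested.

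Several subunits of complex IV exist in a widely expressed form and in one restricted to certain tissues, and the number of arrays with detection was counted for each form. Cox4i1 was detected on 13 of 13 arrays and Cox4i2, best known from lung, on 0. Cox6a1 was detected on 13 arrays by both of its probes and the heart and skeletal muscle form Cox6a2 on 9, 5 of the controls and 4 of the ezetimibe mice. Cox6b1 was detected on 13 arrays by both probes, and the testis form Cox6b2 on 7 by one probe and on 0 by the other. Cox7b was detected on 13 and Cox7b2 on 0, and Cox8b, the muscle form of subunit VIII, on 4. The restricted form detected most widely was Cox7a1, the heart and skeletal muscle form of subunit VIIa, which was detected on all 13 arrays. Its level in the controls ran from 12.39 to 12.80 with a median of 12.58, and in the ezetimibe mice it was 12.67, 12.68, 12.37, 12.87 and 12.61. The groups overlapped, with 1 ezetimibe mouse above and 1 below the control range. The other VIIa genes, Cox7a2 and Cox7a2l, were also detected on at least 5 arrays. The Cox7a2 probe was weak, with unnormalized signals of 146 to 342.6, where the medians of the arrays ran from 120.7 to 152.8. Against the mean level of 7 smooth muscle genes, Cox7a1 had a slope of -0.23 ± 0.21 (SE) per log2 unit, with an adjusted p of 0.793 by limma. Of the striated muscle markers, Acta1 and Actn2 were detected on 13 arrays and Ckm on 10, and Myh4, Myh7, Myl2 and Tnnt3 on 0. Of the 6 fat markers, Cfd was detected on 10 arrays, Adipoq and Cidea on 6 each, and Ucp1, Fabp4 and Plin1 on 0.

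Ezetimibe and control mice were compared in each probe with limma, with slide in the model and Benjamini-Hochberg adjustment over all 11887 tested probes. At an adjusted p under 0.10, 0 of 82 member probes passed, against 0.252% of all tested probes (30 of 11887). At that share a count of 0 among 82 probes says little about the members. Without adjustment, 1 member probe was higher with ezetimibe at p under 0.05, against 3.68% of all tested probes, and 1 was lower, against 2.5%, which is 1.22% of the member probes in each direction. In 0 of 82 member probes did all ezetimibe arrays lie above every control of their own slide (0.623% of all tested probes), and in 0 did they all lie below (0.168%). Counts of 0 at these shares say equally little. Taking the brightest tested probe of each gene, the log2 fold change of the 68 genes had a median of -0.021, with 28 genes above 0 and 40 below, and ran from -0.21 (Cox6b2) to 0.33 (Atp5e). The median over all 9044 tested genes was 0.0002.

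**Figure D1:**
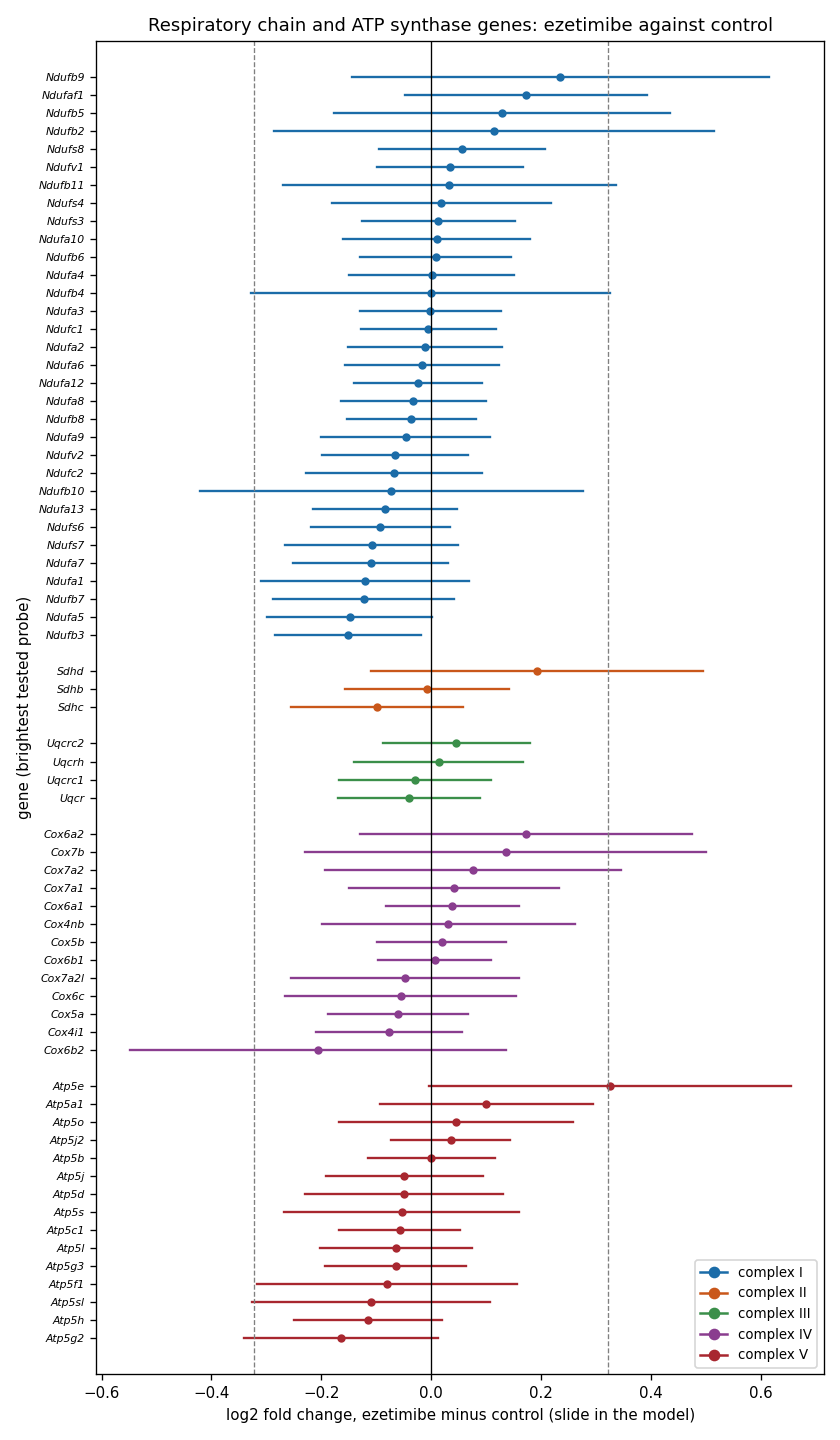
Log2 fold change of 67 of the 68 tested genes (x axis, ezetimibe minus control with slide in the model) with its 95% confidence interval from limma, grouped by complex and ordered within it (y axis, brightest tested probe of each gene); dashed lines mark a 1.25-fold difference either way. The points lie between -0.21 and 0.33, and only the interval of Ndufb3 leaves out 0, before any adjustment.

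The intervals say how large a difference these arrays leave room for. In 53 of 68 member genes the 95% interval lay wholly within a 1.25-fold difference either way (77.9%, against 36.2% of all tested genes), and in 66 of 68 within a 1.5-fold difference (97.1% against 86.9%). The bounds over all members ran from -0.55 to 0.65 on the log2 scale. All 4 tested genes of complex III lay within the narrower limits, as did 26 of 33 of complex I, 2 of 3 of complex II, 9 of 13 of complex IV and 12 of 15 of complex V. The median standard error of a member gene was 0.072, against 0.13 over all tested genes. Brighter probes had smaller errors: the 62 member probes with a level of 8 or more had a median standard error of 0.067 and the 20 dimmer ones 0.14. The 2 genes outside the 1.5-fold limits, Ndufb9 and Atp5e, are among these dim probes.

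Complex I, the entry point for NADH, had a median log2 fold change of -0.017 over 33 genes, with 12 above 0 and 21 below. The smallest p of the complex was that of Ndufb3, an accessory subunit of the membrane arm. Its level in the controls ran from 10.95 to 11.15 with a median of 11.04, and in the ezetimibe mice it was 10.99, 10.88, 10.90, 10.75 and 10.95. The groups overlapped, with ezetimibe mice 1 and 5 above the lowest control. The log2 fold change was -0.15 ± 0.06 (SE), with an adjusted p of 0.745. Ndufa5, another accessory subunit, had control levels of 12.58 to 12.89 with a median of 12.73 and ezetimibe levels of 12.74, 12.46, 12.53, 12.56 and 12.61. Only 1 of the 5 was above the control median, and the log2 fold change of -0.15 ± 0.07 (SE) had an adjusted p of 0.807. Its dimmer probe gave -0.09 ± 0.18 (SE). Ndufa7 followed with -0.11 ± 0.07 (SE) and an adjusted p of 0.847.

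The tested core subunits of complex I, among them those that carry the flavin and the iron-sulfur clusters, ran from -0.11 to 0.06 on their brightest probes. Ndufv1, which binds NADH and the flavin, had a log2 fold change of 0.03 ± 0.06 (SE), and its partner Ndufv2 had -0.07 ± 0.06. In Ndufv1 the controls ran from 12.31 to 12.57 with a median of 12.43, and the ezetimibe mice were at 12.43, 12.48, 12.54, 12.41 and 12.47. All 5 lay inside the range of the controls. Ndufs3 (0.013 ± 0.065), Ndufs7 (-0.11 ± 0.07) and Ndufs8 (0.06 ± 0.07) behaved alike in that every 95% interval held 0 and stayed within a 1.25-fold difference.

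The member probe with the smallest p belonged to Ndufs4, an accessory subunit whose loss causes a severe complex I deficiency in mice, and its probes disagreed. The table holds 4 probes for it. On one, the controls ran from 9.08 to 9.40 with a median of 9.16 and the ezetimibe mice were at 9.54, 9.30, 9.27, 9.47 and 9.65. All 5 ezetimibe values were above the control median and 3 were above the highest control. The log2 fold change was 0.23 ± 0.09 (SE) with an adjusted p of 0.734. The brightest probe gave 0.02 ± 0.09, with ezetimibe levels of 11.89, 11.53, 11.67, 11.78 and 11.46 against a control range of 11.48 to 11.86, and the remaining probes gave -0.007 ± 0.12 and -0.02 ± 0.10. A value of 0.23 was thus seen in 1 of 4 probes of the same gene.

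Complex II, which links the citric acid cycle to the chain, had a median of -0.008 over its 3 tested genes. Sdhb, the iron-sulfur subunit, had control levels of 10.69 to 11.00 with a median of 10.79 on its brightest probe, and ezetimibe levels of 10.90, 10.88, 10.79, 10.71 and 10.70. All 5 ezetimibe values lay inside the control range, and the log2 fold change was -0.008 ± 0.07 (SE). The membrane anchors pointed apart, Sdhc with -0.10 ± 0.07 and Sdhd with 0.19 ± 0.14, each at an adjusted p of 0.882. The probe for Sdhd was dim, with control levels of 4.94 to 5.61 and detection on 5 of 8 controls and 5 of 5 ezetimibe mice. Its ezetimibe levels were 5.17, 5.41, 5.51, 5.53 and 5.43, all above the control median of 5.15 and all below the highest control.

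Complex III had the narrowest range, with log2 fold changes from -0.04 (Uqcr, a small accessory subunit) to 0.045 (Uqcrc2, a core protein) over 4 genes and a median of -0.008. Uqcrc1, the other core protein, gave -0.029 ± 0.065 (SE). Uqcrh, the hinge protein that sits beside cytochrome c1, had control levels of 13.28 to 13.65 with a median of 13.51 and ezetimibe levels of 13.66, 13.38, 13.47, 13.49 and 13.52. One ezetimibe mouse lay just above the highest control and the rest inside the control range, with a log2 fold change of 0.01 ± 0.07. The smallest adjusted p of the complex was 0.948. Its 4 tested genes had a median level of 13.20, which places them among the bright probes with smaller errors. Whether the narrow range is particular to the complex was not tested.

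Complex IV had a median of 0.019 over 13 genes, with 8 above 0 and 5 below. The structural partners of the catalytic subunits had small values: Cox4i1 gave -0.08 ± 0.06 (SE), Cox5a -0.06 ± 0.06 and Cox5b 0.019 ± 0.055. In Cox5b, the zinc-binding subunit, the controls ran from 13.73 to 13.90 with a median of 13.81 and the ezetimibe mice were at 13.83, 13.80, 13.96, 13.72 and 13.85. One ezetimibe value was above and one below the control range. Cox6b1 gave 0.006 ± 0.05 and -0.0001 ± 0.055 on its 2 probes, and Cox6a1 0.04 ± 0.06 and 0.04 ± 0.07. The outermost values of the complex were both on probes near the detection limit, Cox6a2 with 0.17 ± 0.14 and Cox6b2 with -0.21 ± 0.16, at adjusted p of 0.901 and 0.885. Among the VIIa forms, Cox7a1 gave 0.04 ± 0.09, Cox7a2 0.08 ± 0.13 and Cox7a2l -0.05 ± 0.10. Cox7b gave 0.14 ± 0.17 and Cox6c, a small accessory subunit, -0.06 ± 0.10.

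Complex V had the lowest median of the 5, -0.054 over 15 genes, with 5 above 0 and 10 below. Of its catalytic head, the beta subunit lay near 0. Atp5b, the beta subunit that carries the catalytic sites, had control levels of 14.68 to 14.93 with a median of 14.79 and ezetimibe levels of 14.79, 14.71, 14.88, 14.83 and 14.79, all inside the control range, and its log2 fold change of 0.0001 had a standard error of 0.055. The alpha subunit Atp5a1 gave 0.10 ± 0.09 and the gamma subunit Atp5c1, the rotor stalk, -0.06 ± 0.05. Atp5o, which fixes the head to the outer stalk, gave 0.045 with an SE of 0.10. The c-ring genes Atp5g2 and Atp5g3, which code for the same mature protein, gave -0.16 ± 0.08 and -0.065 ± 0.061. For Atp5g2 the controls ran from 10.48 to 11.00 with a median of 10.74, and the ezetimibe mice were at 10.74, 10.61, 10.53, 10.54 and 10.46. Of these 5, 4 were below the control median and 1 below the lowest control, and the adjusted p was 0.828.

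The smallest p of complex V was that of Atp5e, the epsilon subunit of the rotor, which was also the largest log2 fold change among the members. Its controls ran from 5.10 to 5.89 with a median of 5.65 and its ezetimibe mice were at 6.09, 5.77, 5.61, 6.37 and 5.88. The first and the fourth ezetimibe mice were above all controls. The log2 fold change of 0.33 ± 0.15 (SE) had an adjusted p of 0.807, and the probe was dim, with detection on 7 of 8 controls. Atp5h, subunit d of the outer stalk, gave -0.115 ± 0.063 with an adjusted p of 0.838, and Atp5j, coupling factor 6, gave -0.05 ± 0.07 and 0.09 ± 0.12 on its 2 tested probes. The 4 genes set apart as not coding for a subunit stood no further out: Ndufaf1 gave 0.17 ± 0.10, Atp5s -0.05 ± 0.10, Atp5sl -0.11 ± 0.10 and Cox4nb 0.03 ± 0.11 and -0.17 ± 0.11 on its 2 probes. Leaving them out kept the median of the members at -0.021.

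**Figure D2:**
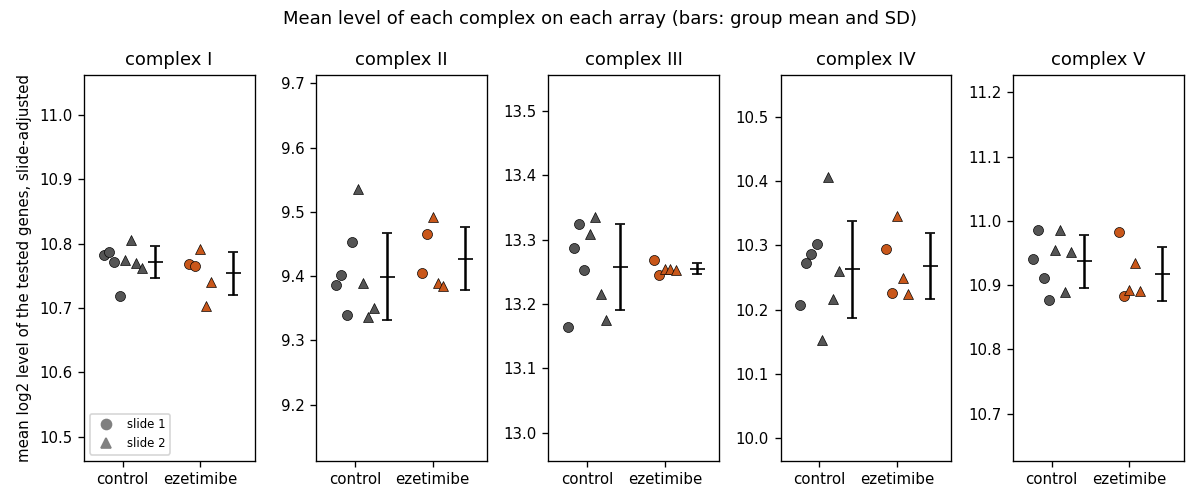
Mean log2 level of the tested genes of each complex (y axis, slide-adjusted, every panel spanning the same height) on each of the 13 arrays, controls in grey and ezetimibe mice in orange, circles for slide 1 and triangles for slide 2, with the group mean and SD as bars. The ezetimibe arrays lie among the controls in all 5 panels, with the exception of 1 array of complex I, at 10.70, which is below the lowest control at 10.72.

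Averaged over all 68 genes, the mean level was 10.77 to 10.86 in the controls with a median of 10.79, and 10.81, 10.78, 10.82, 10.76 and 10.76 in the ezetimibe mice. The group means were 10.80 ± 0.03 (SD, n = 8) and 10.79 ± 0.03 (SD, n = 5), a gap of 0.01 that is smaller than the spread within either group. Quantile normalization gives all arrays the same distribution of levels, which limits how far such a mean can move. The mean of the ezetimibe mice was below that of the controls by 0.018 in complex I and above it by 0.028 in complex II, where the control SD was 0.067. With both slides fitted apart, the median log2 fold change of the members was -0.002 on slide 1 and -0.041 on slide 2. In complex V the 2 slides gave 0.018 and -0.057.

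Contents of other tissues varied between mice, so each member probe was also fitted against the mean level of marker genes, with slide and group in the model. Ezetimibe minus control, the mean marker level was 0.58 for exocrine pancreas, -0.01 for smooth muscle and -0.51 for T and NK cells. The control SDs were 2.05, 0.17 and 0.54. With group in the model, the slopes do not address such differences between the groups. Of the 82 member probes, 0 rose and 0 fell with the exocrine pancreas level at an adjusted p under 0.10. Of all tested probes, 0.412% rose and 0.00841% fell. That level spanned 7.00 log2 units between arrays. With the level of smooth muscle genes, 0 rose and 0 fell, against 0.303% and 0.294% of all tested probes. With the level of T and NK cell genes, 0 rose and 0 fell, against 0.488% and 0.0505%. The smooth muscle level spanned 0.71 log2 units and the T and NK cell level 1.60, so these slopes rest on a narrower range than that of the pancreas genes. The shares of all tested probes include the marker genes themselves. At such shares a count of 0 among 82 probes says little about the members.

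Each slide held mice of both groups, and many more member probes differed between the slides than between the groups. Of the 82 member probes, 43 were lower on slide 2 at an adjusted p under 0.10 (52.4%, against 24.5% of all tested probes) and 17 were higher (20.7%, against 28.8%). Among the 62 probes with a level of 8 or more, 29 were lower and 15 higher, with a median difference of -0.06, and among the 20 dimmer ones 14 were lower and 2 higher, with a median of -0.75. Complex II was lower on slide 2 in all 3 genes by the brightest probe, and complex V in 8 of 15.

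Probes of the same gene often differed in the slide difference. Of the 11 genes with more than 1 tested probe, the probes differed from each other by a median of 0.70 log2 units in their slide difference and by 0.13 in their log2 fold change with ezetimibe, and the gap in the slide difference was the larger of both in 10 of 11. For Ndufb6, an accessory subunit of complex I, the bright probe had a slide difference of 0.05 and the dim one -1.50, while their log2 fold changes were 0.008 and -0.03. For Ndufa5 the slide differences were 0.07 and -0.66. For Ndufs4 they were -0.02 on the brightest probe and -0.88, -0.93 and -0.98 on the others. For Sdhb they were -0.83 and -0.98 on the bright probes and 0.70 on a dim one that was detected on 3 of 8 controls and 3 of 5 ezetimibe mice. Cox4nb had 0.60 and -0.70. The probes of these 5 genes thus gave different slide differences for one symbol. Those of Atp5j lay closer together, at 0.12 and 0.21, as did those of Cox6b1, at 0.16 and 0.38. The probes of Ndufs4 and of Cox4nb also differed in sign and by more than 0.2 in the treatment contrast.

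**Figure D3:**
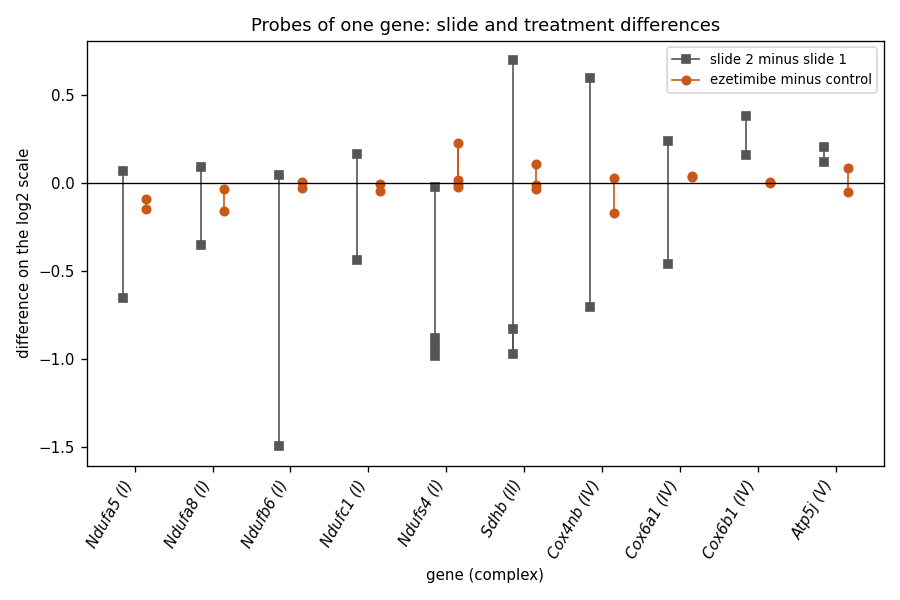
Differences on the log2 scale (y axis) for 10 of the 11 genes with more than 1 tested probe (x axis, complex in brackets), each point a probe and each line joining probes of one gene; grey squares are slide 2 minus slide 1 and orange circles ezetimibe minus control. The squares of a gene spread by up to 1.68 and the circles by up to 0.25.

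Subunits of one complex are needed in fixed proportions, so their co-variation between mice was described after slide and group had been removed, as Pearson's r across the 13 arrays for each pair of genes. All pairs share the same arrays and the same normalization, and no test is attached. The median r over the 2278 pairs of member genes was 0.053, with 56.5% of pairs above 0, against 0.004 and 50.46% over all pairs of the 9044 tested genes. Of all pairs, 44.79% lay above the median of the members. Pairs within a complex had a median of 0.063 and pairs between complexes 0.047. By complex the median was 0.061 in complex I, 0.098 in complex IV and 0.063 in complex V, and below 0 in complex III (-0.044 over 6 pairs) and complex II (-0.29 over 3 pairs).

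The member with the highest median r to the others was, in each complex, Ndufa9 (0.21), Sdhb (0.20), Uqcrh (0.20), Cox7a2l (0.25) and Atp5j2 (0.19). The lowest were Ndufb10 (-0.16), Sdhd (-0.10), Uqcrc1 (-0.04), Cox7a1 (-0.03) and Atp5a1 (-0.09). The closest pair was Uqcrh with Ndufa5 (0.89) and the most opposed Ndufs7 with Ndufb5 (-0.87), both picked from 2278 pairs. When arrays were scaled to a common median in place of quantile normalization, the median r became 0.66 for members and 0.29 for all tested genes.

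**Figure D4:**
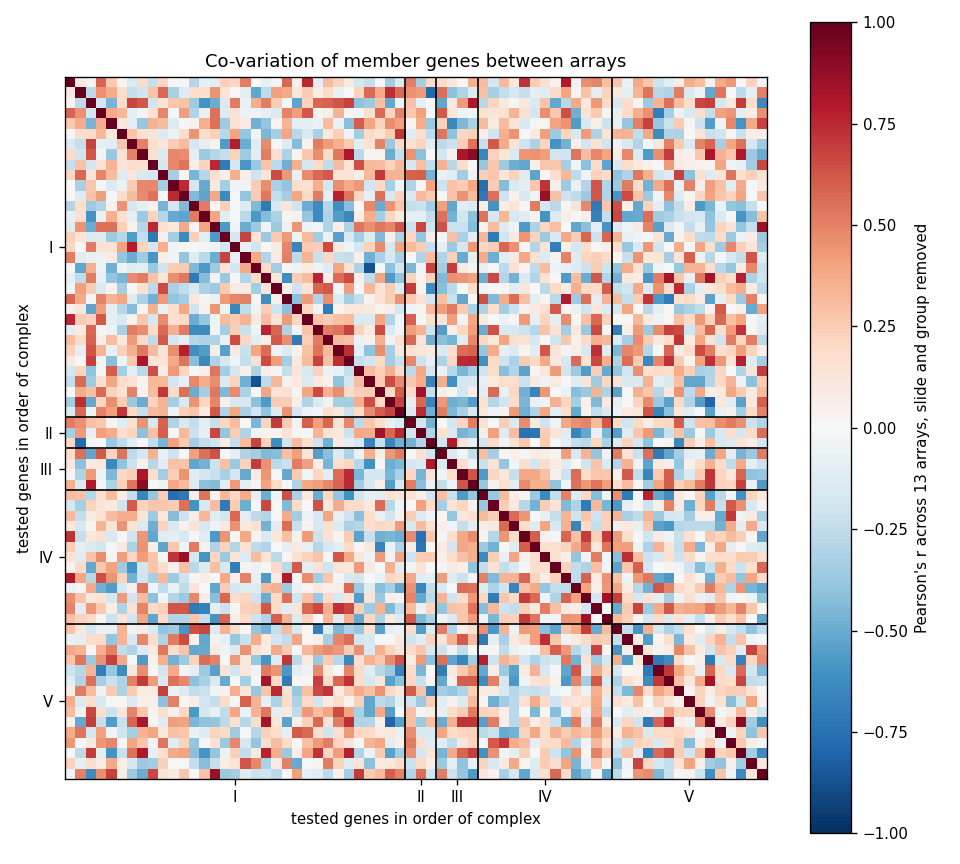
Pearson's r across the 13 arrays (colour) for each pair of the 68 tested genes after slide and group were removed, with genes in order of complex on both axes and black lines between complexes. Pairs within a complex, with a median of 0.063, stand out little from pairs between complexes, with 0.047.

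Promoter motifs are a feature that the selection by symbol did not use. Nuclear respiratory factor 1 (NRF1), GA-binding protein (GABP, also called NRF2), YY1 and the estrogen-related receptors (ERR) are known regulators of nuclear genes for mitochondrial proteins. Promoter windows of 250 bases before to 50 after the gene start, from RefSeq (GRCm38.p6), were found for 63 of the 77 genes, of which 58 were tested. Both strands were searched for exact matches, and overlapping matches of one motif were allowed. The NRF1 motif GCGCANGCG was in 16 of the 58 tested members (27.6%), against 14.7% of the 6920 tested genes with a window and 7.03% of all 27025 genes. The YY1 motif AAGATGGC was in 11 (19.0%), against 5.49% and 3.19%. Most of these YY1 matches in members lay 22 to 38 bases after the gene start, so that this share depends on a window reaching past the start. The YY1 motif holds the letters ATG, and whether a match spans the start of translation was not tested. The GABP motif CCGGAAG was in 15 (25.9%), against 20.2% and 9.93%, so that its share was nearer to that of other genes detected in this tissue. The ERR motif TCAAGGTCA was in 2 (3.45%), against 0.405% and 0.466%. The SP1 motif GGGCGG was rarer in members (46.6% against 67.9% of tested genes), and TATAAA was in 8.62% against 9.54%. At least 1 of the NRF1, GABP and YY1 motifs was in 35 of 58 tested members (60.3%), against 34.4% of tested genes. A match is a run of letters in a window and not a site shown to be bound.

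**Figure D5:**
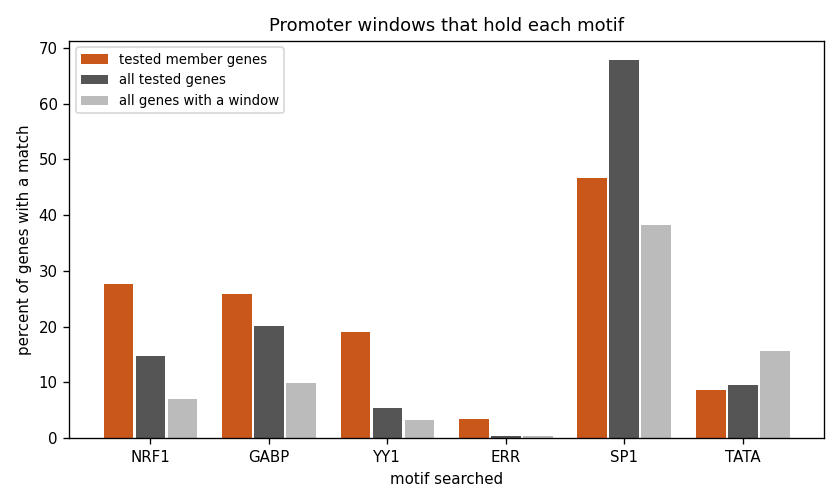
Percent of genes (y axis) whose promoter window of 300 bases holds each motif (x axis), for the tested member genes, all tested genes and all genes with a window. The NRF1 bar of the members stands at 27.6% against 14.7% of tested genes and the YY1 bar at 19.0% against 5.49%, whereas SP1 is at 46.6% against 67.9%.

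Matches were also counted by complex, where the numbers of genes are small. YY1 matches were in 7 of 31 complex I genes and 4 of 15 complex V genes with a window, and in 0 of the 17 genes of complexes II, III and IV. NRF1 matches were in 7 of 15 genes of complex V and 1 of 11 of complex IV. Of all tested genes with a window, 5.49% held the YY1 motif and 14.7% the NRF1 motif. At these shares the 0 of 17 and the 1 of 11 say little. To show these motifs in place, the tested gene with most different matches was taken from each complex, with ties settled by the number of matches. The windows are Ndufs6 at chr13:73328433-73328732, Sdhd at chr9:50603800-50604099, Uqcr at chr10:80406772-80407071, Cox6a1 at chr5:115348909-115349208 and Atp5l at chr9:44920693-44920992, all on the minus strand of GRCm38.p6 and written 5′ to 3′ along the gene, with matches to the NRF1, GABP and YY1 motifs on either strand in capitals.
Ndufs6: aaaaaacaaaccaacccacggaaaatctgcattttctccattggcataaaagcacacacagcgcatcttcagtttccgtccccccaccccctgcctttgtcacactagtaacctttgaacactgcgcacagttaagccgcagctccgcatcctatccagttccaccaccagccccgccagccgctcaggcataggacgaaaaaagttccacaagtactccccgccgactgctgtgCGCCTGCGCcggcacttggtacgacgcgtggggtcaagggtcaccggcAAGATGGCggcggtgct
Sdhd: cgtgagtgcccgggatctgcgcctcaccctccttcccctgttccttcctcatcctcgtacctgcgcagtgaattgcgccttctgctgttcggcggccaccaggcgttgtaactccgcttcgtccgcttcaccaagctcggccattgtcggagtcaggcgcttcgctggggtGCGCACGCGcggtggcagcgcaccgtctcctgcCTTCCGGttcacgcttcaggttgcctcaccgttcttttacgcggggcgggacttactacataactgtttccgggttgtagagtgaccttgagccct
Uqcr: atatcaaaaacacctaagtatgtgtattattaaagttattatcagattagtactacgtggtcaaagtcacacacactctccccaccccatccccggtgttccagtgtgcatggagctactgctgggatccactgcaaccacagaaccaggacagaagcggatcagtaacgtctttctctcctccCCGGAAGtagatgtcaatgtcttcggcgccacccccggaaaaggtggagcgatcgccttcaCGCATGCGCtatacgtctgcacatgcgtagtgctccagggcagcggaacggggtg
Cox6a1: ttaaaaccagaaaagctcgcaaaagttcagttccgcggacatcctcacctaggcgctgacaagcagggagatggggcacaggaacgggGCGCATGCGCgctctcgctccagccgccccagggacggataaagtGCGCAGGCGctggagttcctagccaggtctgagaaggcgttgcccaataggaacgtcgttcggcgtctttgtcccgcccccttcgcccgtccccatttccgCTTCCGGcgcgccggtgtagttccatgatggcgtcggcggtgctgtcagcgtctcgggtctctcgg
Atp5l: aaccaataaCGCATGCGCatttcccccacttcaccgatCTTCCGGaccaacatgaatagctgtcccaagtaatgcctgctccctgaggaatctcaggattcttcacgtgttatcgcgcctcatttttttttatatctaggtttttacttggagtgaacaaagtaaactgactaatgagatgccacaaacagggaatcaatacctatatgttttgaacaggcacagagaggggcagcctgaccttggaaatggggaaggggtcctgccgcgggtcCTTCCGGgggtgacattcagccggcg
In the Ndufs6 window the NRF1 match began 15 bases upstream of the start and the YY1 match 33 bases downstream of it. Sdhd had an NRF1 match 79 and a GABP match 46 bases upstream, and Uqcr had them 5 and 66 bases upstream. Cox6a1 had overlapping NRF1 matches 162 and 161 bases upstream, another at 117 and a GABP match at 16. Atp5l had an NRF1 match at 241 and GABP matches at 212 bases upstream and 24 downstream.

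Medians of the treatment contrast were taken for members with and without each motif. The median log2 fold change was -0.05 in members with an NRF1 match and -0.004 in those without, -0.05 and -0.02 for YY1, and 0.008 and -0.04 for GABP. The transcripts of the factors themselves gave -0.08 ± 0.09 (SE) for Nrf1, 0.23 ± 0.19 for Gabpa and -0.19 ± 0.08 for Esrra, which codes for the alpha form of ERR. For Esrra the adjusted p was 0.745, the smallest of the 11 tested biogenesis regulators, of which 0 were past the threshold. Ppargc1a, the coactivator that drives mitochondrial biogenesis, gave -0.0006 ± 0.16.

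In 6 lists of neighbouring mitochondrial systems 0 genes were past the threshold, which 0.252% of all tested probes passed, so that a count of 0 in lists of this size says little about them. The median log2 fold change was 0.021 over 13 citric acid cycle genes, 0.011 over 14 electron carriers and feeding enzymes, -0.010 over 19 assembly factors, 0.005 over 7 genes of ATP export and control and -0.058 over the 11 biogenesis regulators. The 66 tested genes of the mitochondrial ribosome, which makes the subunits encoded by mitochondrial DNA, had a median of -0.021, with 28 above 0 and 38 below, next to -0.021 in the respiratory chain. The smallest p of each list belonged to Idh3b of isocitrate dehydrogenase (-0.18 ± 0.08 SE, adjusted p = 0.781), the glycerophosphate dehydrogenase Gpd2 (0.24 ± 0.11, adjusted p = 0.777), the outer membrane channel Vdac1 (0.27 ± 0.09, adjusted p = 0.619), the complex I assembly factor Acad9 (-0.19) and the ribosomal protein Mrpl4 (-0.19, adjusted p = 0.745). All adjusted p values here are from limma over all 11887 tested probes.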

How the data were processed

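RNA from the upper small intestine of each of 13 mice was amplified, biotin-labelled and hybridised to 1-colour BeadChips, per the labels' protocols. The deposited table of unnormalized values holds, for each probe and array, the linear bead intensity with its detection p-value, per the file headers. The authors' processed values, deposited separately on a linear signal scale and used here only as an alternative, were quantile-normalized and batch-corrected per the series' design text, and their medians ran from 236.09 to 236.297. Which annotation release the symbols came from was not found among those sources.

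Intensities were corrected and quantile-normalized with neqc (offset 16) and put on the log2 scale in limma 3.58.1 under R 4.3.3. Probes with detection p under 0.05 on at least 5 arrays (11887) were fitted with slide and group, using a variance trend, and p-values were Benjamini-Hochberg adjusted over all of them at a threshold of 0.10, the false discovery rate of the authors' text. Printed levels are the deposited intensities after these steps with the fitted slide difference removed. Of the member probes, 89 carried a current RefSeq symbol and 6 an older synonym. The members and lists were chosen with earlier results of these data known. One member gene enters all counts and medians but is not reported here by name or drawn by name in a figure. Other genes were named by rule: per complex the 3 smallest p, the core subunits and isoform sets, genes whose probes differed in sign by more than 0.2, the most and least co-varying member, members without a structural role, and the smallest p of each other list. Ndufb5, Ndufb6, Ndufb9, Cox6c, Atp5j and Ppargc1a were named after their values were seen, as were Nrf1, Gabpa and the genes of the promoter section; members below the detection filter were all named. Intervals, marker slopes and the motif search were also added after seeing the data. The fit was tested on simulated data. The number of arrays limits the precision.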

Additional observations from a re-analysis of the deposited data

Results flagged for a closer look

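In 6 of 110 groups of member arrays tested by Dixon's ratio (gap to the nearest array over the range of the group), 1 array stood apart from the rest, and chance gives about 1 in 20. In the controls these were the dim Atp5e probe, where control 7 was at 5.10 against 5.52 to 5.89 in the others (ratio 0.535), Atp5g3, where control 2 was at 14.66 against 14.36 to 14.44 (0.728), and Cox4nb, where control 5 was at 8.78 against 8.20 to 8.47 (0.532). In the ezetimibe mice they were Cox6a1, where the third mouse was at 14.079 against 14.0133 to 14.0143 (0.984), Cox4nb, where the first mouse was at 8.77 against 8.32 to 8.39 (0.848), and Ndufaf1, where the fifth mouse was at 7.91 against 7.46 to 7.57 (0.754). The array of the Atp5e probe is the lowest control of the gene with the largest log2 fold change among the members.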

How the results depend on the processing

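The count of members past the threshold was 0 under every setting tried, among them no filter, no slide term, each slide alone, the authors' deposited processed values, pancreas level as a covariate and each array left out in turn. In the main fit 0.252% of all tested probes passed, so that a repeated count of 0 says little about the members. With the replicate block the count was also 0 and the median of the members was -0.027. The numbers were not taken to pair the mice, since deviations of same-numbered arrays correlated at 0.12, -0.13, 0.05, 0.36 and -0.42. Median scaling in place of quantile normalization moved the median of all tested genes to 0.088 and those of the members to 0.098 (complex I 0.107, II 0.119, III 0.106, IV 0.105, V 0.074), so that relative to all genes they stayed within 0.04. The median of complex II was -0.092 without a slide term and -0.12 on slide 2 alone, and that of complex V was 0.018 on slide 1 alone. The median r between members was 0.66 under median scaling, 0.069 without a slide term, 0.042 without control 4 and ezetimibe 4 and 0.045 to 0.070 when each array was left out. The cause of these shifts was not tested. Of 1513 values of the named probes under other settings, 132 had the opposite sign to the value reported, and 14 of 49 probes kept their sign in every setting. Probes near the detection limit hold the widest intervals.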
